A study of Mus musculus with 9 samples.

Results

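KSL cells that carried the RUNX1 fragment RUNX1(41-214) were compared with control KSL cells across all genes on the array. The comparison used the 3 arrays labelled RUNX1(41-214) and the 3 labelled Control, 6 of the 9 arrays in the series, and all 20380 probe sets that carry 1 gene symbol, of 22690 in all. These probe sets stand for 12393 genes. KSL cells are bone marrow cells that carry c-Kit and Sca-1 and lack lineage markers, here also sorted to lack IL7Ra on their surface, and they hold the haematopoietic stem cells and early multipotent progenitors. All mice had a C57BL/6 background, and each group had 3 biological replicates with 1 array each. Control mice carried Runx1floxed/floxed alleles without the MxCre transgene that would delete them (MxCre-/-), and their cells were taken 3 months after poly IC. RUNX1(41-214) cells came from mice transplanted with cells transduced with a retroviral vector that expresses the fragment, 4 months after transduction and transplantation. Their labels name neither floxed alleles nor poly IC, and the 9 arrays hold no transplanted cells that received an empty vector. The fragment, the transduction, the transplantation, poly IC and the genotype of the controls therefore differ together and cannot be told apart. The labels do not say from which species the fragment was taken, how many vector insertions or clones the cells held, or whether the sorted cells were gated on a vector marker. Another group, Runx1KO (Runx1floxed/floxed with MxCre+/-, 3 months after poly IC), entered the fit so that 3 groups shared an estimate of the spread, and its values are given beside the others where useful. Both comparisons against control share the same control arrays.

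RUNX1 is the DNA-binding partner in the core-binding factor. Its Runt domain binds DNA and the partner subunit CBFB, and the region after that domain carries the parts that activate and repress transcription. A fragment that keeps the Runt domain and lacks the later region can occupy DNA and CBFB without them. In blood, RUNX1 is known for the emergence of haematopoietic stem cells in the embryo and, in the adult, for lymphoid development and for the maturation of megakaryocytes, the cells that shed platelets.

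Array medians of the deposited signal were 145, 141 and 145 in control, 126, 125 and 138 in RUNX1(41-214) and 147, 141 and 137 in Runx1KO arrays. Each RUNX1(41-214) median thus lay below every control median. Signal at the 3′ end of Gapdh over that at its 5′ end, a sign of RNA integrity, on the log2 scale was 1.84 in control replicate 2. It was between 0.97 and 1.28 in the other 5 arrays compared, and 2.11 in Runx1KO replicate 3, which entered the fit. Control replicate 2 also stood apart on the second principal component, at -36.4 against -13.6 to 11.7 for the other 5 arrays. The count of genes past the threshold was 479 without it and 449 with it. Because each array measured a bulk population, fewer cells of a type and less RNA per cell cannot be told apart in any result that follows. Values per array are log2(signal + 16) after quantile normalization, on which the lowest value of any gene was 4.07, and changes are differences on that scale, RUNX1(41-214) minus control, with the standard error (SE) of the limma fit.

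In RUNX1(41-214) cells 449 genes passed an adjusted p of 0.05 (limma, Benjamini-Hochberg over all 20380 probe sets), which is 3.62% of the genes tested. Of these, 178 were higher (1.44%) and 271 lower (2.19%). The percentage given in brackets with the calls of a gene list is the share of its measured members that passed. It is given beside these shares of all genes as a description. The lists were chosen with earlier results of these data known, so a share above that of all genes is no test of a list. Over all lists, 56 of 1424 measured genes rose and 75 fell. Over probe sets the count was 640 (3.14%). The changes were large: 353 of the 449 genes differed at least 2-fold, with 125 higher and 228 lower, and 41 higher and 55 lower genes differed at least 4-fold. The median absolute change was 1.30 among the genes that rose and 1.49 among those that fell. In all 449 the 3 arrays of one group lay wholly above those of the other, a pattern that 20.3% of all genes shared. Of the genes that rose, 109 had a mean signal above the median of all genes, and 105 of those that fell. Of the 271 genes that fell, 78 (28.8%) had a RUNX1(41-214) mean at the dim end of the scale (a group mean below 5.38). A control mean at that end was found for 8 of the 271, and for 24.9% of all genes. At the dim end the offset of 16 compresses a fold. Of the genes that rose, 22 started there (12.4%). The median change of all genes was 0.02 and the median SE was 0.21. A total of 1861 genes had an unadjusted p under 0.05. The count depended on which array was left out: it was 479 without control replicate 2, as above, whereas 237 genes passed without RUNX1(41-214) replicate 1, 227 without replicate 2, and 361 without replicate 3, against 285 and 292 without control replicates 1 and 3. A set of 186 genes (65 higher, 121 lower) passed without each of the 6 arrays in turn.

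**Figure D1:**
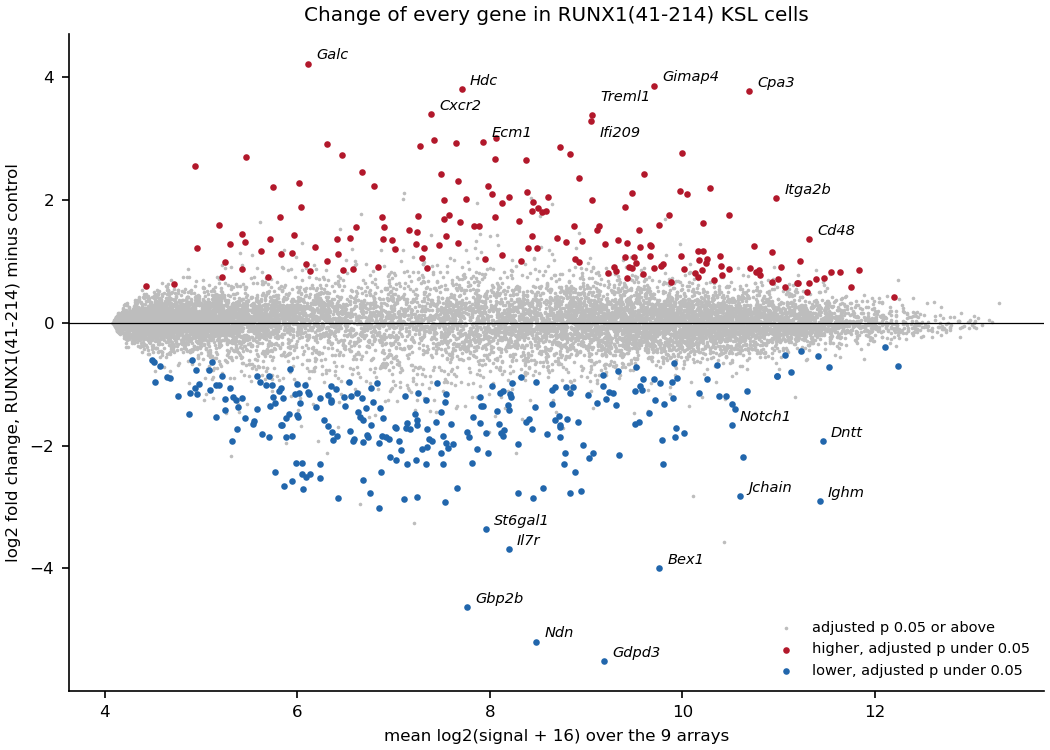
Change of each of the 12393 genes (vertical axis, log2 fold change, RUNX1(41-214) minus control) against its mean log2(signal + 16) over the 9 arrays (horizontal axis), with 1 point per gene. Red points are the 178 genes that rose, blue points the 271 that fell and grey points the rest; the largest falls, such as Gdpd3 and Ndn, lie below a change of -5.

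The largest falls brought genes that were well above the bottom of the scale in control cells close to it. Gdpd3, which encodes a phosphodiesterase that cleaves lysophospholipids, was at 11.03, 10.73 and 10.84 in the control arrays and 5.59, 5.31 and 5.18 in the RUNX1(41-214) arrays. It fell by 5.51 ± 0.18 (SE; 45.4-fold, adjusted p = 3.78e-08), and its 3 RUNX1(41-214) arrays lay near the bottom of the scale while the Runx1KO arrays were at 11.35, 11.38 and 11.27. Ndn, the imprinted gene of the growth suppressor necdin, was at 10.34, 10.70 and 10.58 in control and 5.21, 5.32 and 5.53 in RUNX1(41-214) cells, a change of -5.19 ± 0.19 (adjusted p = 9.28e-08). Of its 7 other probe sets, 5 fell too, with changes from -5.05 to -3.65, and 2 dim ones were at -0.04 and 0.05. Gbp2b, a guanylate-binding protein of the interferon response, was at 9.43, 9.03 and 9.16 against 4.7, 4.66 and 4.38, a change of -4.63 ± 0.32 (adjusted p = 2.03e-05). The same gene was at 9.78, 8.67 and 10.05 in Runx1KO. In each of these 3 genes every RUNX1(41-214) array lay over 4 log2 units below the lowest control array.

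Further large falls joined genes of quite different roles. Bex1, an X-linked adaptor protein gene, was at 11.30, 11.11 and 11.54 in control and 7.85, 7.78 and 6.36 in RUNX1(41-214) cells (a change of -3.99 ± 0.34, adjusted p = 8.91e-05), with RUNX1(41-214) replicate 3 lowest. Gja1, which encodes the gap junction protein connexin 43, was at 8.7, 9.31 and 9.21 against 6.24, 5.75 and 6.49 (a change of -2.91 ± 0.31, adjusted p = 0.000353). Hnf4a, a nuclear receptor best known from liver, was at 9.52, 9.8 and 9.13 against 7.26, 5.92 and 6.7 and fell by 2.86 ± 0.32 (adjusted p = 0.000504), with Runx1KO arrays at 9.09, 9.42 and 9.16. None of these groups overlapped. Among the other falls were those of Arpp21 (-2.84 ± 0.36), the secreted serpin gene Serpinf1 (-2.77 ± 0.27), the membrane protein gene Emp1 (-2.76 ± 0.32), the myosin light chain gene Myl10 (-2.75 ± 0.39) and the endocytic recycling gene Ehd3 (-2.69 ± 0.31). Smim10l1, which encodes a small membrane protein, was high in control cells at 11.03, 10.27 and 10.49 and fell to 8.45, 8.35 and 8.08 (a change of -2.3 ± 0.22, adjusted p = 0.000168). The adjusted p of each gene named here stayed under 0.05 in every omission of a single array. Not every probe set moved with its gene. Another probe set of Smim10l1, Ehd3 and Gja1 was at 0.33, 0.37 and 0.19, with overlapping groups. Another of Serpinf1, Arpp21 and Hnf4a was at 0.11, 0.02 and 0.02, with overlapping groups too. That of Smim10l1 was above the median signal. All further Gja1 probe sets fell, with changes from -2.87 to -2.68 that passed. Hnf4a had further probe sets at -1.61 (limma adjusted p = 0.00399) and -0.74 (0.178), and Arpp21 at -0.25 (0.588).

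Among the rises, Galc, the lysosomal enzyme that removes galactose from galactosylceramide, had the largest. It was at 4.59, 4.71 and 4.74 in control, 4.58, 4.91 and 4.72 in Runx1KO and 8.99, 8.64 and 9.07 in RUNX1(41-214) cells, a rise of 4.22 ± 0.19 (SE; 18.6-fold, adjusted p = 5.47e-07). Control and Runx1KO arrays were near the bottom of the scale. Its 2 other probe sets, both dim, were at -0.16 and -0.05 (adjusted p = 0.762 and 0.957), so the rise was seen by 1 of 3 probe sets. Gimap4, a GTPase of the lymphocyte survival family, was at 7.86, 7.33 and 7.42 against 11.48, 11.47 and 11.25, a rise of 3.86 ± 0.24 (adjusted p = 7.93e-06), and its other probe set rose by 3.57. Its Runx1KO arrays lay between, at 10.31, 10.52 and 9.66. Pcdh7, a protocadherin gene, was at 6.3, 6.22 and 6.48 in control and 9.68, 9.4 and 8.97 in RUNX1(41-214) cells (a rise of 3.01 ± 0.27, adjusted p = 0.000113). The other Pcdh7 probe set, a dim one, was at 0.50 with overlapping groups (limma adjusted p = 0.432). Ecm1, which encodes a secreted matrix protein, was at 6.43, 6.28 and 6.72 against 9.39, 9.53 and 9.36 and rose by 2.95 ± 0.24 (adjusted p = 5.79e-05). In both genes the Runx1KO arrays were intermediate, at 8.0, 8.7 and 8.84 and 7.92, 7.5 and 8.23.

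The other large rises included membrane transport and signalling genes. Slc45a3, a sugar transporter family gene, rose by 2.87 ± 0.39 (adjusted p = 0.00212), from 5.45, 5.39 and 6.08 to 8.24, 8.6 and 8.69. Slc24a3, an exchanger of sodium, calcium and potassium, rose by 2.67 ± 0.27, and Gna14, the alpha subunit of a G protein, by 2.65 ± 0.27. Shisa2 rose by 2.97 ± 0.46 and Ankrd33b by 2.74 ± 0.3. Ankrd33b was at 5.38, 6.17 and 5.15 in control, 5.78, 5.01 and 5.75 in Runx1KO and 8.36, 8.05 and 8.51 in RUNX1(41-214) cells, where the arrays of the first 2 groups overlapped. All 5 of these genes stayed under an adjusted p of 0.05 in each omission of 1 array.

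**Figure D2:**
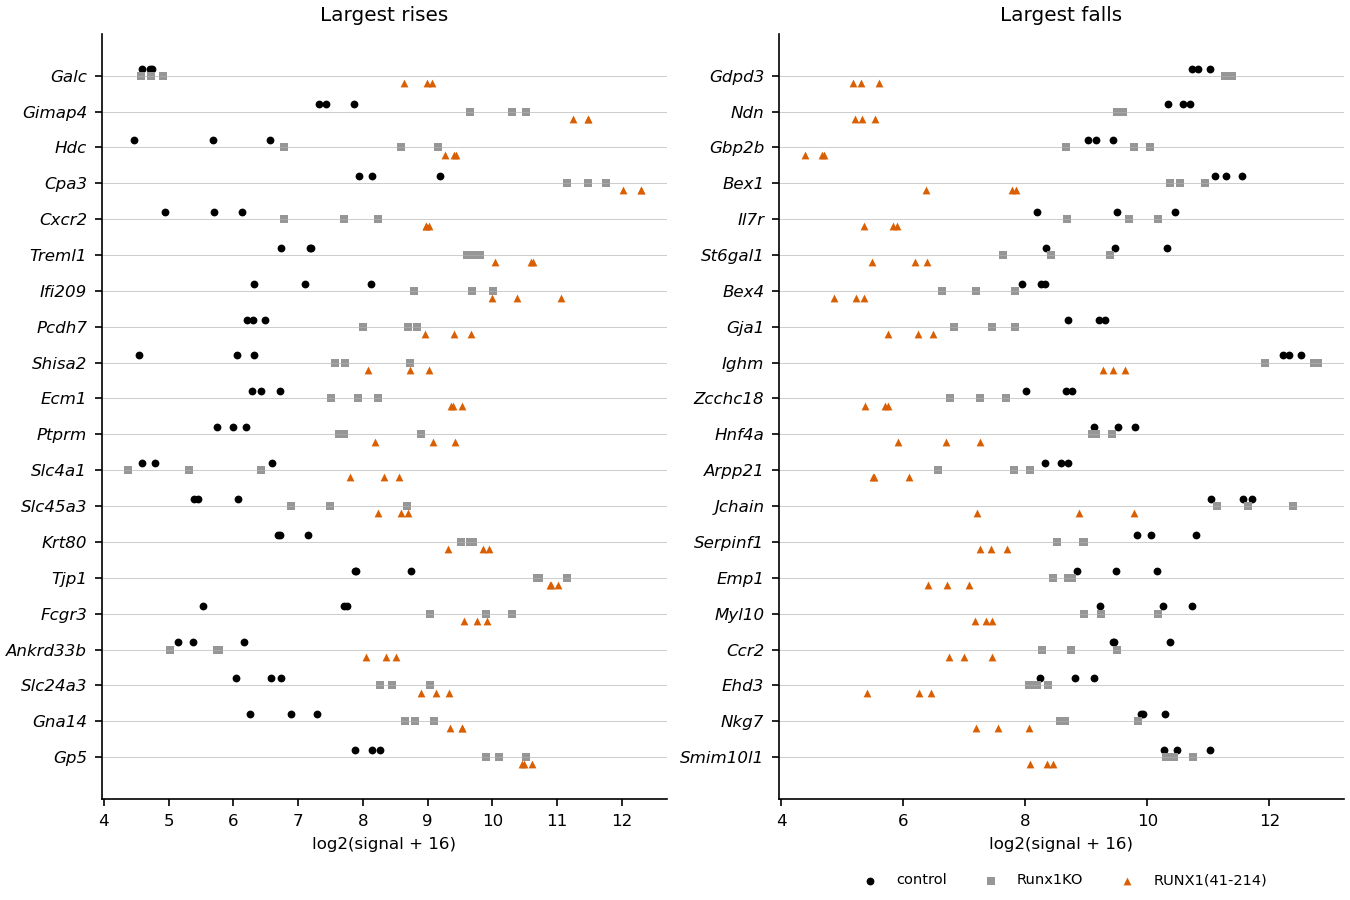
Values of the 20 largest rises (left) and the 20 largest falls (right) in each array, as log2(signal + 16) on the horizontal axis, with circles for control, squares for Runx1KO and triangles for RUNX1(41-214) arrays. In all 40 genes the triangles and circles do not overlap, which the choice of the genes required; the Runx1KO squares lie among the circles for Galc and Ankrd33b and among the triangles for Tjp1 and Krt80.

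Promoter sequence was looked at because the Runt domain recognises a short motif. TGTGGT or TGCGGT, searched on both strands in RefSeq windows of 300 bases that run from upstream of each gene's start to just past it (build GRCm38.p6), was present in 43 of 173 promoters of genes that rose (24.9%), 59 of 287 of genes that fell (20.6%) and 21.0% of the 12566 promoters of all 9887 genes matched. TGTGGT alone was in 16.2%, 11.5% and 13.2%. The windows of 135 genes that rose and 211 that fell were matched. A match describes letters in the window and no match says only that they are not in it. 5 promoters are shown, chosen after the values were seen, for Cpa3, Gimap4 and Cd48, which rose, Il7r, which fell, and Treml1, which rose and holds no match. They are written 5′ to 3′ on the strand of the gene with the match in capitals, and ACCACA is TGTGGT read on the other strand. The windows are chr3:20242132-20242431 (minus strand) for Cpa3, chr6:48684328-48684627 (plus) for Gimap4, chr1:171681742-171682041 (plus) for Cd48, chr15:9529827-9530126 (minus) for Il7r and chr17:48359666-48359965 (plus) for Treml1.
Cpa3: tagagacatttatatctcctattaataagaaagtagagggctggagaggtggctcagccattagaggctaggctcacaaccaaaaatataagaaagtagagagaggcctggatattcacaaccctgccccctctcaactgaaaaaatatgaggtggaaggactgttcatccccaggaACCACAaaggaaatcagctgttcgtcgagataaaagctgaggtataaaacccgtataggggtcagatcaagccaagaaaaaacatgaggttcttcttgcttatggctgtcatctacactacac
Gimap4: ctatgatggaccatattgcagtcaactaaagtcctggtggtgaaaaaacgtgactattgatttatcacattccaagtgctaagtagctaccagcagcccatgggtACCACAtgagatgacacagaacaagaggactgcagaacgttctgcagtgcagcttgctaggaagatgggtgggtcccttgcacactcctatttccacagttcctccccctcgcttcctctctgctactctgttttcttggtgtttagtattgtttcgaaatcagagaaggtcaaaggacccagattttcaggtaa
Cd48: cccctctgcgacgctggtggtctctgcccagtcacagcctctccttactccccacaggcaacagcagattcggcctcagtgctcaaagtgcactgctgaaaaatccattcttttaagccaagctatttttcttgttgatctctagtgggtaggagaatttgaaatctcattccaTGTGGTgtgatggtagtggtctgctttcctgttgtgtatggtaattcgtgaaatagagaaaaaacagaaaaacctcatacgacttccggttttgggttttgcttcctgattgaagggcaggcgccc
Il7r: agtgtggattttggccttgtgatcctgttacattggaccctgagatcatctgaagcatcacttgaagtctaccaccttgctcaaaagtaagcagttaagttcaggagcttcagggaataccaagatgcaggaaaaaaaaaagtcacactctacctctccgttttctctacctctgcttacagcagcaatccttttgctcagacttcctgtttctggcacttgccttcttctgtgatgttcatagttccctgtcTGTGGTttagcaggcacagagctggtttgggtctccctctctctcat
Treml1: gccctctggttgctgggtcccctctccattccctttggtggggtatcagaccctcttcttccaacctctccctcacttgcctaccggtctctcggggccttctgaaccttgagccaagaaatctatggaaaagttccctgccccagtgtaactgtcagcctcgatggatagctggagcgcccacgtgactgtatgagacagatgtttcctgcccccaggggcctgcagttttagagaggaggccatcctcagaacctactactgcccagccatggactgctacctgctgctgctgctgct
Relative to the annotated start, the match begins at -73 in Cpa3, -145 in Gimap4 and -76 in Cd48, and it lies just after the start in Il7r.

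Runx1 itself was at 10.73, 9.88 and 10.58 in control, 10.82, 10.95 and 11.06 in RUNX1(41-214) and 11.20, 11.73 and 11.40 in Runx1KO cells, and its difference of 0.55 ± 0.21 did not pass (adjusted p = 0.255). A total of 4 further probe sets measure Runx1, of which 1 rose by 1.07 (adjusted p = 0.0274) and 3 were at 1.38, 0.65 and 0.59 and did not pass. Where the probes lie relative to the fragment's coding sequence or to the deleted exon was not known here, so this signal does not check the labels. The partner subunit gene Cbfb was at 12.08, 11.66 and 11.88 in control and 11.90, 12.01 and 11.76 in RUNX1(41-214) cells, and the groups overlapped (0.02 ± 0.12, adjusted p = 0.976). Runx3 lay at the bottom of the scale, at 4.16, 4.09 and 4.17 and 4.68, 4.12 and 4.12. Of the 23 measured genes of the Runx family and its partner factors, among them the corepressors of the Tle family and the histone deacetylases, 0 passed in limma and 3 had an unadjusted p under 0.05. That count was 1, a lower gene, without control replicate 2 and with array weights. The lowest p values of this list belonged to Ets1, a transcription factor that binds DNA with RUNX1, at -1.11 ± 0.3 (adjusted p = 0.0819), and Hdac1 at -0.36 ± 0.12. Among 37 genes reported as Runx1 targets, 2 rose and 2 fell (10.8%, against 3.62% of all genes). They were Itga2b and the chromatin protein gene Hmga2, which rose, and the granzyme gene Gzmb and Aldh1a1, which fell. Aldh1a1 did not pass without control replicate 3 (adjusted p = 0.0636).

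The labelled cell type was checked on the genes of the sort markers. Kit, which encodes c-Kit, was at 11.32, 11.11 and 11.01 in control and 11.83, 11.81 and 11.51 in RUNX1(41-214) cells (0.57 ± 0.14, adjusted p = 0.0554), high in every array. The gene of Sca-1 was not analysed here, since no probe set carried its symbol alone. Cd34 was at 12.00, 11.68 and 11.68 against 12.04, 11.94 and 12.06 and the pan-leukocyte gene Ptprc at 12.24, 11.83 and 11.97 against 12.13, 12.10 and 12.11, and neither passed. Il7r, the gene of the receptor chain that the gate excludes on the cell surface, was at 10.45, 8.19 and 9.49 in control and 5.82, 5.36 and 5.9 in RUNX1(41-214) cells. It fell by 3.69 ± 0.51 (adjusted p = 0.00226), its other probe set fell by 3.28, and the Runx1KO arrays were at 10.17, 9.7 and 8.68. Control replicate 2 was the lowest control array for Il7r, and it still lay over 2 log2 units above the highest RUNX1(41-214) array. Cd48, a surface protein that is low on stem cells and gained by progenitors, rose by 1.36 ± 0.16 (adjusted p = 0.00088), from 10.59, 10.47 and 10.50 to 12.02, 11.89 and 11.74. Procr, the endothelial protein C receptor found on stem cells, was at 11.33, 11.23 and 11.22 against 10.48, 10.48 and 10.20 and fell by 0.87 ± 0.16. Slamf1 (CD150) at 0.79 ± 0.29, the progenitor receptor gene Flt3 at -0.6 ± 0.21, Thy1 at -1.07 ± 0.27 and Eng at 0.42 ± 0.2 did not pass. Of the 10 sort marker genes measured, 1 rose and 2 fell (30.0%, against 3.62% of all genes). With arrays centred on their medians Procr did not pass (adjusted p = 0.0511). The call of Procr was lost without control replicate 1 or RUNX1(41-214) replicate 3 (adjusted p up to 0.0578).

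Genes associated with haematopoietic stem cells went both ways: 2 of 28 rose and 6 fell (28.6%, against 3.62% of all genes), with a median of -0.25. Tek, the angiopoietin receptor of stem and endothelial cells, was at 8.92, 8.46 and 9.09 in control and 10.58, 10.49 and 10.19 in RUNX1(41-214) cells and rose by 1.59 ± 0.22 (adjusted p = 0.00217). Gng11, a G protein gamma subunit gene, rose by 1.26 ± 0.18 (adjusted p = 0.00319). Besides Ndn and Procr, the falls were those of the early growth response factor Egr1, at 9.54, 9.45 and 9.91 against 8.36, 8.53 and 8.29 (a change of -1.24 ± 0.21, adjusted p = 0.00882), of the retinaldehyde-oxidising enzyme gene Aldh1a1 (a change of -1.86 ± 0.36), of the lymphotoxin gene Ltb (-1.2 ± 0.23) and of the ADP-ribosyltransferase family gene Art4 (-1.19 ± 0.22). The stem cell transcription factor gene Gata2 was at 11.87, 11.87 and 11.82 in control and 11.95, 11.96 and 11.86 in RUNX1(41-214) cells, and the groups overlapped. Without single arrays the list kept 2 rises and had between 4 and 8 falls, fewest without RUNX1(41-214) replicate 2 or 3. Among the genes that then did not pass were Ltb without control replicate 1 or RUNX1(41-214) replicates 2 or 3 (adjusted p up to 0.0778), Art4 without RUNX1(41-214) replicates 1 or 2 (adjusted p up to 0.0714), and Aldh1a1 without control replicate 3 (adjusted p up to 0.0636).

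The early lymphoid genes held the largest group of falls among the cell type lists. Of 24 measured, 8 fell and 1 rose (37.5%), with a median of -0.90 against 0.02 for all genes. Dntt, the terminal transferase that adds bases at rearranging antigen receptor genes, was at 12.42, 11.96 and 12.22 in control and 10.60, 9.81 and 10.42 in RUNX1(41-214) cells, a change of -1.93 ± 0.24 (adjusted p = 0.00113). Its Runx1KO arrays were at 12.15, 12.15 and 11.39. Ccr9, a receptor that guides progenitors to the thymus, was at 8.43, 7.73 and 8.67 against 5.88, 6.51 and 5.89 and fell by 2.18 ± 0.3 (adjusted p = 0.00212). Jchain, the joining chain of secreted immunoglobulin, which lymphoid-primed progenitors also transcribe, was at 11.05, 11.57 and 11.71 against 9.79, 8.88 and 7.2, with a spread of over 2 log2 units among the RUNX1(41-214) arrays and no overlap (a change of -2.82 ± 0.53, adjusted p = 0.0136). Il7r, Notch1, Ltb, the interleukin 1 receptor gene Il1r1 (-1.8 ± 0.36) and the B cell adaptor gene Blnk (-2.31 ± 0.51) were the other falls. Cd52, a small surface glycoprotein of lymphocytes, rose by 1.08 ± 0.2. Rag1, which cuts antigen receptor genes for rearrangement, was at 10.25, 7.01 and 6.63 in control and 4.93, 4.47 and 4.74 in RUNX1(41-214) cells, a difference of -3.25 ± 0.9 that did not pass (adjusted p = 0.0881), with control replicate 1 far above the other controls. Between 5 and 9 members fell when 1 array was left out, 5 of them without control replicate 1 or RUNX1(41-214) replicate 3. The omissions that ended a call were, by gene, Jchain without control replicate 3 (adjusted p up to 0.0644), Il1r1 without control replicates 1 or 3 or RUNX1(41-214) replicates 1 or 3 (adjusted p up to 0.0902), and Blnk without control replicates 1, 2 or 3, Runx1KO replicate 2 or RUNX1(41-214) replicates 1, 2 or 3 (adjusted p up to 0.132). Calls also ended for Cd52 without RUNX1(41-214) replicates 1 or 2 (adjusted p up to 0.0724) and Ltb without control replicate 1 or RUNX1(41-214) replicates 2 or 3 (adjusted p up to 0.0778).

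Of 16 B cell genes 3 fell and 0 rose (18.8%), with a median of -0.42. Ighm, the immunoglobulin mu heavy chain gene, was at 12.22, 12.32 and 12.51 in control and 9.63, 9.27 and 9.43 in RUNX1(41-214) cells, while the Runx1KO arrays were at 12.80, 12.73 and 11.93. It fell by 2.91 ± 0.21 (adjusted p = 2.22e-05), and 1 of its 10 other probe sets fell by 2.80. The other 9 did not pass, and with the mean of its probe sets Ighm was at -0.52 and did not pass. Besides Blnk, the surface receptor gene Cd72 fell by 1.1 ± 0.21, from 9.08, 9.52 and 9.49 to 8.08, 8.33 and 8.37, and did not pass without control replicate 3 or RUNX1(41-214) replicates 1 or 2 (adjusted p up to 0.0977). Cd79b, a signalling chain of the B cell receptor, was at 8.94, 9.43 and 9.22 against 9.35, 9.16 and 9.33 with overlapping groups. The summed signal of the 16 genes was 11964, 11830 and 12272 in the control arrays and 7017, 6827 and 6587 in the RUNX1(41-214) arrays. This sum adds linear signals, so the fall of Ighm weighs heavily in it, and it does not describe each member. Of the 16 genes, 5 lay above control and 11 below. The defining genes Pax5, Cd22 and Vpreb3 lay at the dim end in both groups. Without single arrays between 1 and 5 of the 16 fell, 1 without control replicate 3 or RUNX1(41-214) replicate 1 and 5 without Runx1KO replicate 3. The call of Blnk was lost without control replicates 1, 2 or 3, Runx1KO replicate 2 or RUNX1(41-214) replicates 1, 2 or 3 (adjusted p up to 0.132).

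Of 26 T and NK cell genes 7 fell and 0 rose (26.9%), with a median of -0.22. Nkg7, a granule protein gene of cytotoxic cells, was at 10.30, 9.9 and 9.92 in control and 7.2, 7.55 and 8.06 in RUNX1(41-214) cells, a change of -2.43 ± 0.34 (adjusted p = 0.00237). The granzyme gene Gzmb was low throughout, at 6.03, 6.23 and 6.52 against 4.44, 4.88 and 5.34, and fell by 1.37 ± 0.23 (adjusted p = 0.00741). The cathepsin gene Ctsw was at 8.4, 9.19 and 8.03 against 6.26, 6.55 and 6.63 and fell by 2.06 ± 0.36 (adjusted p = 0.00904). Smaller falls at low signal were those of the T cell receptor zeta chain gene Cd247 (-1.15 ± 0.23), of Cd6 (-0.96 ± 0.2), of the transcription factor gene Eomes (-0.77 ± 0.16) and of Gzma (-0.99 ± 0.23), the last named after its values were seen. The other probe set of Eomes was at 0.48 with its arrays wholly higher (adjusted p = 0.323), and with the mean of their probe sets Eomes and Cd247 did not pass (adjusted p = 0.724 and 0.205). The summed signal of the list was 3565, 3632 and 3451 in control and 1942, 1929 and 2082 in RUNX1(41-214) arrays. The defining T cell genes Cd3e, Cd3g, Cd4, Cd5 and Cd8b1 and the NK cell genes Ncr1 and Tbx21 lay at the dim end in both groups, as did 10 of the 26 members in all. Between 3 and 7 members fell without single arrays, 3 of them without control replicate 1 or without RUNX1(41-214) replicate 1 or 2, and 4 without control or RUNX1(41-214) replicate 3. Nkg7 and Gzmb passed in each omission, whereas calls were lost in Ctsw without RUNX1(41-214) replicate 1 (adjusted p up to 0.0518), Cd247 without control replicates 1 or 2 or RUNX1(41-214) replicates 2 or 3 (adjusted p up to 0.0976), and Cd6 without control replicates 1 or 3 or RUNX1(41-214) replicates 1, 2 or 3 (adjusted p up to 0.0923). Further losses were those of Eomes without control replicates 1 or 3 or RUNX1(41-214) replicates 1, 2 or 3 (adjusted p up to 0.123) and Gzma without control replicates 1 or 3, Runx1KO replicates 1 or 2 or RUNX1(41-214) replicates 1, 2 or 3 (adjusted p up to 0.169).

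Among genes of megakaryocytes and platelets 7 of 28 rose and 1 fell (28.6%), 24 of 28 lay above control and the median was 0.68. Treml1, which sits on the granules of platelets, was at 6.74, 7.19 and 7.2 in control, 9.69, 9.82 and 9.62 in Runx1KO and 10.63, 10.05 and 10.60 in RUNX1(41-214) cells, a rise of 3.38 ± 0.22 (adjusted p = 1.32e-05). Itga2b, the integrin chain CD41, was nearly level among the controls at 9.86, 9.89 and 9.85 and stood at 11.80, 12.00 and 11.88 in RUNX1(41-214) cells (a rise of 2.02 ± 0.15, adjusted p = 4.11e-05), with Runx1KO at 10.81, 11.41 and 11.25. Gp5, which belongs to the glycoprotein complex by which platelets bind von Willebrand factor, was at 7.89, 8.14 and 8.26 against 10.50, 10.46 and 10.61 and rose by 2.43 ± 0.2 (adjusted p = 5.91e-05). Selp, the adhesion receptor P-selectin, was at 9.18, 9.02 and 9.3 in control, 10.01, 9.36 and 9.81 in Runx1KO and 11.25, 11.35 and 11.17 in RUNX1(41-214) cells (a rise of 2.09 ± 0.18, adjusted p = 0.000103). In all 4 genes the arrays of the 2 groups were far apart on the probe sets given. The other probe set of Selp, also above the median signal, was at 0.92 with overlapping groups (limma adjusted p = 0.373). Clec1b, the podoplanin receptor of platelets, rose by 2.23 ± 0.38 from 5.23, 6.08 and 5.9 to 8.48, 8.32 and 7.09, and RUNX1(41-214) replicate 3 was its lowest array of that group. The other rises were those of pleckstrin, Plek (0.83 ± 0.18), and of Rab27b (0.99 ± 0.22), a GTPase of granule release named after its values were seen. Other probe sets of Plek rose by 1.28 and 1.61 (limma adjusted p = 0.0208 and 0.0424). F2r, the thrombin receptor gene, was at 0.69 ± 0.17 (adjusted p = 0.0501) and its other probe set rose by 1.80 (adjusted p = 5.91e-05). Fhl1, a LIM domain protein gene, fell by 1.72 ± 0.32. The summed signal of the list was 17631, 17495 and 20016 in control and 35423, 32543 and 32012 in RUNX1(41-214) arrays. Left-out arrays gave 5 to 9 rises, 5 of them without control replicate 2 or 3 or RUNX1(41-214) replicate 1 or 2, and the calls that depended on single arrays were Plek without control replicates 2 or 3, Runx1KO replicate 2 or RUNX1(41-214) replicates 1 or 2 (adjusted p up to 0.142), Rab27b without control replicates 2 or 3 or RUNX1(41-214) replicates 1 or 2 (adjusted p up to 0.169), and Fhl1 without control replicate 3 or RUNX1(41-214) replicates 1 or 2 (adjusted p up to 0.076).

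Among mast cell and basophil genes 4 of 19 rose and 1, Gzmb, fell (26.3%). The median was 0.14, with 11 of the 19 above control and 8 below. Cpa3, the mast cell carboxypeptidase, was at 8.13, 7.95 and 9.2 in control, 11.48, 11.16 and 11.75 in Runx1KO and 12.30, 12.29 and 12.01 in RUNX1(41-214) cells, a rise of 3.77 ± 0.28 (adjusted p = 3.65e-05). Hdc, the enzyme that makes histamine, was at 5.68, 4.47 and 6.56 against 9.27, 9.4 and 9.44 and rose by 3.8 ± 0.59 (adjusted p = 0.00436), with a wide spread among the controls and a narrow one among the RUNX1(41-214) arrays. Ms4a2, the beta chain of the IgE receptor, rose from 5.15, 4.93 and 5.26 to 6.47, 7.11 and 6.91 (by 1.72 ± 0.25, adjusted p = 0.00281), and the cytokine receptor chain gene Csf2rb2 rose by 1.51 ± 0.3. Summed over the list, the signal was 14055, 13383 and 14678 in control and 22332, 22465 and 19499 in RUNX1(41-214) arrays, while the granule protease genes Cma1 and Mcpt4 lay at the dim end in both groups. Csf2rb2 did not pass without control replicate 3 or RUNX1(41-214) replicates 1 or 2 (adjusted p up to 0.0975), and the number of rises was between 3 and 5.

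Against 3.62% of all genes, 4.55% of the granulocyte list, 14.8% of the monocyte, macrophage and dendritic cell list and 10.3% of the erythroid list passed. Cxcr2, a neutrophil chemokine receptor, was the 1 of 22 granulocyte genes that passed. It was at 5.69, 4.95 and 6.14 in control, 7.71, 6.79 and 8.24 in Runx1KO and 9.02, 8.98 and 8.97 in RUNX1(41-214) cells, a rise of 3.4 ± 0.38 (adjusted p = 0.000498), and the granule enzyme genes Mpo (0.17 ± 0.19) and Prtn3 (0.39 ± 0.16) did not pass. Of 27 monocyte, macrophage and dendritic cell genes 1 rose and 3 fell. The chemokine receptor gene Ccr2 fell by 2.69 ± 0.35 (adjusted p = 0.00158), from 9.46, 9.44 and 10.38 to 7.0, 7.45 and 6.75, and the integrin chain gene Itgax fell by 1.39 ± 0.23. Other probe sets of Ccr2 were at -0.39, with overlapping groups, and at -1.56, and did not pass (limma adjusted p = 0.6 and 0.178). The pore-forming protein gene Mpeg1 fell by 2.2 ± 0.48 and the IgG receptor gene Fcgr3 rose by 2.75 ± 0.52. The macrophage genes C1qa, C1qb, C1qc and Fcgr1 lay at the dim end in both groups. Of 29 erythroid genes 3 rose and 0 fell: the anion exchanger gene Slc4a1 (2.91 ± 0.56), the haem synthesis gene Alas2 (2.2 ± 0.42) and Icam4 (0.89 ± 0.18). The list as a whole did not rise: 11 of the 29 lay above control and 18 below, with a median of -0.07. The 3 Slc4a1 controls spread from 4.59 to 6.59, and Car2 and Fech were at -0.06 and 0.01 with overlapping groups. Other probe sets of Slc4a1 were at 2.65 (limma adjusted p = 0.0117) and, near the bottom of the scale, at -0.05. Without RUNX1(41-214) replicate 2 none of the 29 erythroid genes passed. Of 27 stromal and endothelial genes Tek was the 1 that passed, and the stromal genes Col1a1, Col3a1, Dcn and Pdgfra lay at the dim end in both groups. Calls that ended when 1 array was left out were Mpeg1 without control replicates 1 or 3, Runx1KO replicate 1 or RUNX1(41-214) replicates 1, 2 or 3 (adjusted p up to 0.129), Fcgr3 without RUNX1(41-214) replicates 1 or 2 (adjusted p up to 0.068), and Slc4a1 without control replicates 2 or 3 or RUNX1(41-214) replicates 1 or 2 (adjusted p up to 0.0785). Lost as well were Alas2 without control replicate 3 or RUNX1(41-214) replicate 2 (adjusted p up to 0.076) and Icam4 without control replicate 1 or RUNX1(41-214) replicates 1, 2 or 3 (adjusted p up to 0.102).

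**Figure D3:**
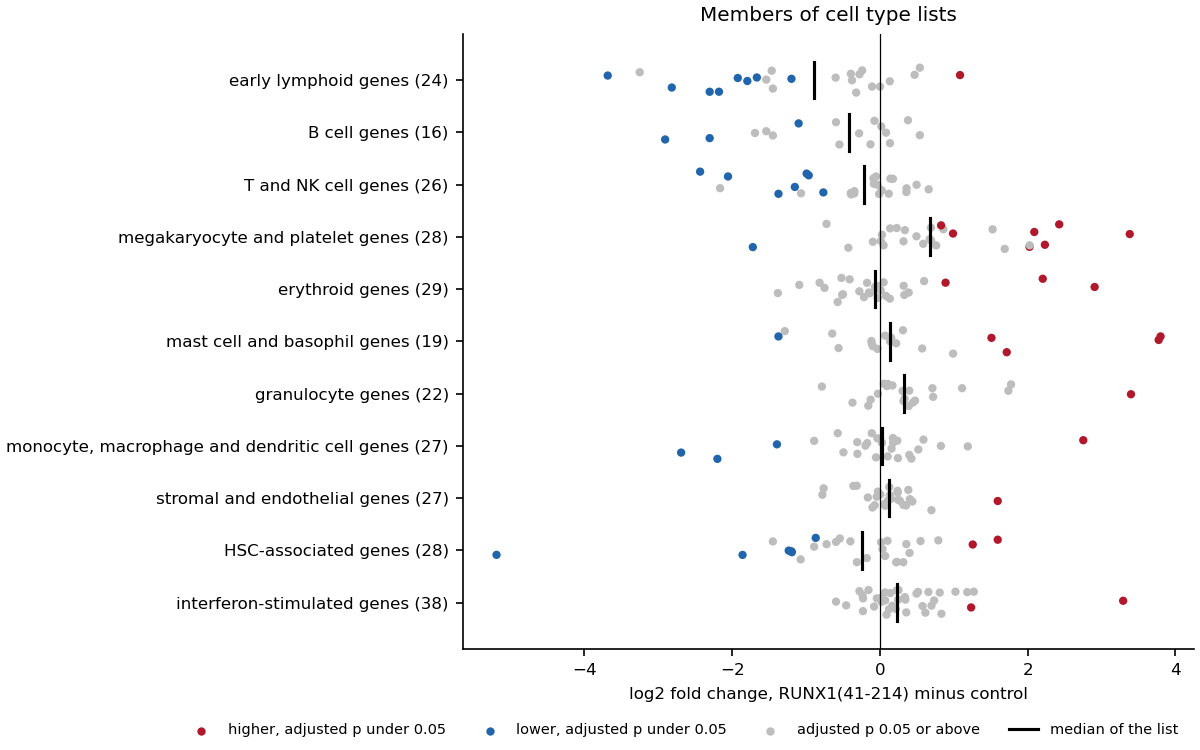
Log2 fold change (RUNX1(41-214) minus control, horizontal axis) of each measured member of 11 gene lists (1 row per list, number of members in brackets); red and blue points passed an adjusted p of 0.05, grey points did not, and the black bar is the median of the list. The early lymphoid median lies at -0.90 and the megakaryocyte and platelet median at 0.68, and the vertical jitter has no meaning.

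**Figure D4:**
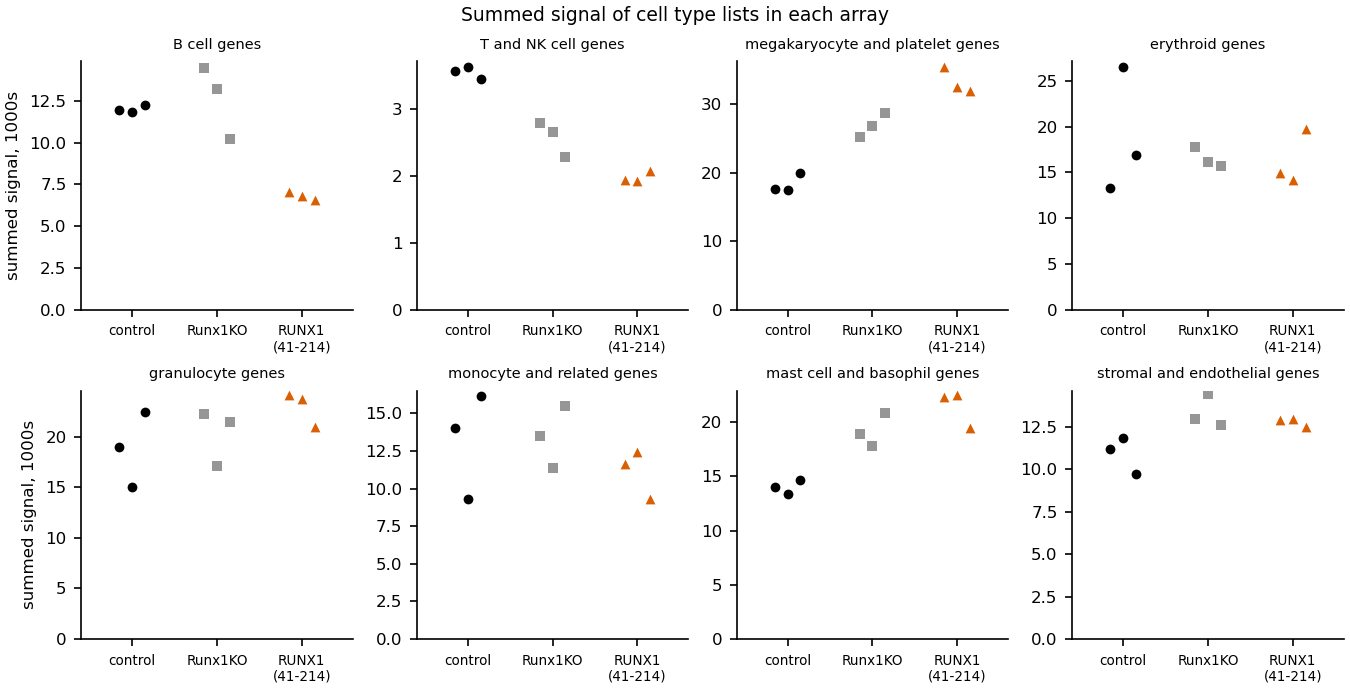
Sum of the signals of each cell type list in each array (vertical axis, from 0), with 1 panel per list, 3 arrays per group, and each group in replicate order from left to right. B cell sums lie between 11830 and 12272 in control and 6587 and 7017 in RUNX1(41-214) arrays, megakaryocyte and platelet sums between 17495 and 20016 and between 32012 and 35423, and the erythroid groups overlap. Linear signals are added, so bright members, such as Ighm in the B cell list, weigh heavily in a sum.

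The part that the cell types of these lists play in the other changes was not tested.

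Of 47 haematopoietic transcription factor genes 1 rose and 1 fell (4.26%, against 3.62% of all genes). Nfil3, a factor needed for NK cell development, was at 7.94, 6.88 and 7.67 in control, 6.36, 5.45 and 6.46 in Runx1KO and 5.6, 5.88 and 5.47 in RUNX1(41-214) cells and fell by 1.85 ± 0.33 (adjusted p = 0.00982). Myc rose by 0.83 ± 0.19, from 10.56, 10.58 and 9.87 to 11.26, 11.16 and 11.08 (adjusted p = 0.0338). Of 19 Hox and cofactor genes 2 fell (10.5%): Hoxb2, from 7.19, 7.5 and 7.43 to 4.95, 5.73 and 6.47 (-1.66 ± 0.36), and Hoxa9, which supports progenitor growth (-0.54 ± 0.12). Among 8 HMG chromatin protein genes Hmga2 rose and Hmgn1 and Hmgn3 fell (37.5%). Hmga2, an architectural protein of fetal and self-renewing stem cells, was at 8.48, 8.01 and 9.04 in control, 10.52, 10.70 and 11.10 in Runx1KO and 10.93, 10.54 and 10.48 in RUNX1(41-214) cells, a rise of 2.14 ± 0.26 (adjusted p = 0.000928), and its 2 other probe sets rose by 2.00 and 1.55. Hmgn1, a nucleosome-binding protein, fell by 0.7 ± 0.11 (adjusted p = 0.00568) and Hmgn3 fell by 0.99 ± 0.22. Of 21 polycomb and DNA methylation genes 0 passed (limma; 2 had an unadjusted p under 0.05), with Ezh2 at -0.42 ± 0.17 and Suz12 at -0.49 ± 0.17. With arrays centred on their medians in place of quantile normalization, Hmgn1, Hmgn3 and Hoxa9 did not pass (adjusted p = 0.0729, 0.0511 and 0.162), and with the mean of their probe sets Hmgn3 and Hoxa9 did not either (0.0621 and 0.309). Calls that ended in an omission were those of Myc without control replicate 3, Runx1KO replicates 1 or 2 or RUNX1(41-214) replicates 1, 2 or 3 (adjusted p up to 0.157) and Hoxb2 without control replicates 1, 2 or 3 or RUNX1(41-214) replicates 1 or 2 (adjusted p up to 0.108). Calls were also lost for Hoxa9 without control replicates 1 or 3, Runx1KO replicate 2 or RUNX1(41-214) replicates 1, 2 or 3 (adjusted p up to 0.172) and Hmgn3 without control replicates 2 or 3, Runx1KO replicate 2 or RUNX1(41-214) replicates 2 or 3 (adjusted p up to 0.155).

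Of 50 cytokine and growth factor receptor genes 4 rose and 5 fell (18.0%, against 3.62% of all genes). Tgfbr2, the ligand-binding receptor for TGF-beta, was at 11.26, 10.87 and 11.02 in control and 11.84, 11.87 and 11.63 in RUNX1(41-214) cells (a rise of 0.73 ± 0.12, adjusted p = 0.00775). With the mean of its probe sets Tgfbr2 was at 0.37 and did not pass (adjusted p = 0.389). Il18rap, an interleukin 18 receptor chain gene, was at 8.54, 7.54 and 7.23 against 5.62, 5.64 and 6.46 and fell by 1.86 ± 0.35. Igf2r, an imprinted gene whose product clears insulin-like growth factor 2, fell by 1.9 ± 0.39. Its other probe set fell by 2.43 (limma adjusted p = 5.72e-05). Il7r, Il1r1, Tek and Csf2rb2 are described above, and Il5ra (1.16 ± 0.26 higher) and Fgfr1 (-1.21 ± 0.28, not past the threshold with the mean of its probe sets) were named after their values were seen. The list had 1 rise and 1 fall without RUNX1(41-214) replicate 1, 2 and 2 without replicate 2, 4 and 2 without replicate 3, 2 and 4 without control replicate 3, and 5 and 3 without control replicate 1. Of 24 chemokine receptor and chemotaxis genes Cxcr2 rose and Ccr2 and Ccr9 fell, in every omission of 1 array. The TGF-beta and BMP pathway had 3 rises and 0 falls among 32 genes (9.38%): the ligand gene Tgfb1, at 8.46, 8.21 and 8.38 in control, 9.98, 9.7 and 9.1 in Runx1KO and 9.78, 9.74 and 9.41 in RUNX1(41-214) cells (a rise of 1.29 ± 0.24, adjusted p = 0.0121), Tgfbr2, and the activin receptor gene Acvr1b. Acvr1b, which did not pass with the mean of its probe sets, was at 10.75, 10.57 and 10.64 against 11.80, 11.72 and 11.47 and rose by 1.01 ± 0.12 (adjusted p = 0.000828). Acvr1b was the 1 rise left without RUNX1(41-214) replicate 1 or 2, and 5 genes rose without replicate 3. Elsewhere the call ended for Tgfbr2 without RUNX1(41-214) replicates 1 or 2 (adjusted p up to 0.0554), Tgfb1 without RUNX1(41-214) replicates 1 or 2 (adjusted p up to 0.0704), and Il18rap without RUNX1(41-214) replicates 1 or 2 (adjusted p up to 0.0789). The same held for Igf2r without RUNX1(41-214) replicates 1, 2 or 3 (adjusted p up to 0.0962), Il5ra without control replicates 1 or 3, Runx1KO replicates 1 or 2 or RUNX1(41-214) replicates 1 or 3 (adjusted p up to 0.138), and Fgfr1 without control replicates 1 or 2, Runx1KO replicates 1, 2 or 3 or RUNX1(41-214) replicates 1, 2 or 3 (adjusted p up to 0.178).

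In the Notch pathway 2 of 30 genes fell and 0 rose (6.67%, against 3.62% of all genes), in each omission of a single array. Notch1, the receptor that directs progenitors to the T cell lineage, was at 11.47, 10.91 and 11.23 in control, 10.90, 10.70 and 10.80 in Runx1KO and 9.63, 9.63 and 9.34 in RUNX1(41-214) cells, a change of -1.67 ± 0.17 (3.18-fold, adjusted p = 0.000229). Its other probe set was at -1.21 (adjusted p = 0.0528). Hes5, a repressor that Notch signalling induces, was at 7.99, 7.34 and 8.58 in control, 6.5, 6.84 and 7.06 in Runx1KO and 6.22, 6.01 and 6.0 in RUNX1(41-214) cells and fell by 1.9 ± 0.3 (adjusted p = 0.00503). The other probe set of Hes5, at low signal, was at -0.30 with overlapping groups (limma adjusted p = 0.579). On the probe sets whose arrays are given, control and RUNX1(41-214) cells did not overlap for either gene. The median of the 30 was 0.09.

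The Wnt pathway had 1 rise and 4 falls among 39 genes (12.8%, against 3.62% of all genes). Frizzled receptors differed in direction: Fzd6 was at 8.42, 8.2 and 8.24 in control and 10.41, 10.47 and 9.96 in RUNX1(41-214) cells, a rise of 1.99 ± 0.26 (adjusted p = 0.00141), whereas Fzd8 was at 7.23, 6.61 and 6.58 against 4.37, 4.22 and 4.46, a change of -2.46 ± 0.21 (adjusted p = 9.71e-05). Runx1KO arrays were at 8.18, 8.53 and 9.16 for Fzd6 and 7.14, 7.28 and 7.31 for Fzd8. Porcn, the enzyme that acylates Wnt proteins for secretion, fell by 1.36 ± 0.21 (adjusted p = 0.0049), from 6.25, 6.09 and 5.93 to 5.14, 4.63 and 4.44. Apcdd1, a membrane inhibitor of Wnt signalling, was at 8.74, 8.4 and 9.29 in control, 7.24, 6.67 and 7.42 in Runx1KO and 6.94, 6.46 and 6.93 in RUNX1(41-214) cells and fell by 2.04 ± 0.29 (adjusted p = 0.00278). Ryk, a Wnt co-receptor gene, fell by 1.55 ± 0.32 and did not pass without RUNX1(41-214) replicates 1, 2 or 3 (adjusted p up to 0.0951). Its other probe set fell by 1.43 (limma adjusted p = 0.00696). The other 4 genes passed in each omission of 1 array.

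Adhesion genes held several rises. Of 26 genes of integrins and their partners 5 rose and 1 fell (23.1%, against 3.62% of all genes). Beside Itga2b, the rises were those of the adaptor gene Fyb, which links T cell and platelet receptors to integrins, at 9.09, 9.0 and 9.08 against 10.37, 10.38 and 10.21 (a rise of 1.26 ± 0.15, adjusted p = 0.000901), of the leukocyte integrin chain gene Itgb2 (0.86 ± 0.16), of the laminin receptor chain gene Itga6 (0.72 ± 0.13) and of the fibronectin receptor chain gene Itga5 (1.28 ± 0.26, at low signal). With the mean of their probe sets Itga6 and Itga5 did not pass (adjusted p = 0.121 and 0.0602). Itgax fell. Among 36 selectin, cell adhesion and junction genes 5 rose and 6 fell (30.6%). Tjp1, the tight junction scaffold ZO-1, was at 7.88, 7.9 and 8.75 in control, 10.73, 10.69 and 11.15 in Runx1KO and 10.90, 10.91 and 11.02 in RUNX1(41-214) cells, a rise of 2.77 ± 0.24 (adjusted p = 8.69e-05). Jam3, a junctional adhesion molecule, was at 6.33, 6.39 and 6.25 against 8.47, 8.3 and 8.21 and rose by 2.0 ± 0.22 (adjusted p = 0.000467). The other Jam3 probe set, at low signal, was at 0.39 and did not pass (limma adjusted p = 0.366). The receptor phosphatase gene Ptprm rose by 2.92 ± 0.38, and Selp and Pcdh7 were the other rises. Gja1 fell, and so did, named after their values were seen, the adhesion molecule genes Cadm1 (-1.96 ± 0.27) and Alcam (-1.51 ± 0.31), the receptor phosphatase gene Ptprf (-2.47 ± 0.5), the cortactin gene Cttn (-1.62 ± 0.3) and the plakophilin gene Pkp4 (-1.14 ± 0.26, not past the threshold with the mean of its probe sets). The number of integrin list rises was 2 without RUNX1(41-214) replicate 1 or 2, and that of junction list falls was 2 without either or without control replicate 3 and 3 without RUNX1(41-214) replicate 3. The adhesion genes whose call ended were Itgb2 without RUNX1(41-214) replicates 1 or 2 (adjusted p up to 0.0732), Itga6 without RUNX1(41-214) replicates 1 or 2 (adjusted p up to 0.0622), and Itga5 without control replicates 1 or 3 or RUNX1(41-214) replicates 1 or 2 (adjusted p up to 0.0879). Also lost were Alcam without control replicates 1, 2 or 3 or RUNX1(41-214) replicates 1, 2 or 3 (adjusted p up to 0.0729), Ptprf without control replicates 1 or 3 or RUNX1(41-214) replicates 1, 2 or 3 (adjusted p up to 0.0808), Cttn without control replicate 3 or RUNX1(41-214) replicates 1 or 2 (adjusted p up to 0.076), and Pkp4 without control replicates 1 or 3, Runx1KO replicate 2 or RUNX1(41-214) replicates 1, 2 or 3 (adjusted p up to 0.172).

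Secreted matrix and niche factor genes had 5 rises and 3 falls among 36 (22.2%, against 3.62% of all genes). Ccn3, a matricellular protein gene, was at 6.33, 7.31 and 7.75 in control, 8.22, 8.91 and 9.23 in Runx1KO and 4.21, 4.49 and 4.38 in RUNX1(41-214) cells, a change of -2.77 ± 0.36 (adjusted p = 0.00148), and the 3 groups did not overlap. The collagen genes of basement membranes that rose were Col18a1 from 6.69, 5.95 and 7.24 to 8.64, 8.26 and 8.25 (1.76 ± 0.33), Col4a1 from 9.66, 9.59 and 9.5 to 10.42, 10.28 and 10.30 (0.75 ± 0.14), and Col4a2 by 1.26 ± 0.29. Other probe sets of Col18a1 and Col4a1 were at 1.64 and 0.78 (limma adjusted p = 0.00158 and 0.0567). Col4a2 and Timp3, an inhibitor of matrix proteases that fell by 1.25 ± 0.25, were named after their values were seen. Tgfb1, a member of this list too, also rose, and Serpinf1 fell. Ecm1 was the 1 rise left without RUNX1(41-214) replicate 1 or 2, where calls ended for Col18a1 without RUNX1(41-214) replicates 1 or 2 (adjusted p up to 0.075) and Col4a1 without RUNX1(41-214) replicates 1 or 2 (adjusted p up to 0.0868). Calls also ended for Col4a2 without control replicates 1 or 3, Runx1KO replicates 1 or 3 or RUNX1(41-214) replicates 1 or 2 (adjusted p up to 0.193) and Timp3 without control replicates 1 or 3 or RUNX1(41-214) replicates 1, 2 or 3 (adjusted p up to 0.0934).

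Genes of the cytoskeleton mostly fell where they passed, with 5 falls and 1 rise among 43 (14%, against 3.62% of all genes). Krt80, a keratin gene, was at 6.72, 6.69 and 7.16 in control, 9.51, 9.65 and 9.7 in Runx1KO and 9.86, 9.94 and 9.32 in RUNX1(41-214) cells, a rise of 2.85 ± 0.23 (adjusted p = 5.72e-05). Cnn3, an actin-binding calponin, was at 10.74, 10.11 and 10.63 against 9.23, 8.59 and 8.5 and fell by 1.72 ± 0.25 (adjusted p = 0.00317). The other falls were those of the actin crosslinker gene Actn1 (-1.34 ± 0.21), its partner gene Pdlim1 (-1.33 ± 0.24), the myosin light chain gene Myl4 (-1.71 ± 0.34) and the keratin gene Krt8 (-1.37 ± 0.32). Other probe sets of Pdlim1 were at -1.70 (limma adjusted p = 0.00226) and 0.10 (0.854). Those of Krt8 were at -1.29 (0.00652) and -1.02 (0.0506). Among 35 regulators of RAS and small GTPases, Rhoj rose by 2.23 ± 0.31 (adjusted p = 0.00212), from 6.82, 6.84 and 6.72 to 9.21, 9.54 and 8.31, and Dock1, an exchange factor for RAC, fell by 1.61 ± 0.23 (adjusted p = 0.00251), from 8.53, 8.99 and 9.05 to 7.4, 7.18 and 7.16. S100a6, a calcium-binding protein, was at 7.57, 7.43 and 7.32 in control, 7.55, 7.59 and 7.5 in Runx1KO and 8.97, 9.4 and 9.12 in RUNX1(41-214) cells and was the 1 of 19 S100 and annexin genes that passed (a rise of 1.72 ± 0.2, adjusted p = 0.000736). Falls on the cytoskeleton list numbered 2 without RUNX1(41-214) replicate 1 or 2 and 3 without control replicate 1 or 3. With the mean of their probe sets Actn1 and Myl4 did not pass (adjusted p = 0.0555 and 0.0548), and calls ended for Pdlim1 without RUNX1(41-214) replicates 1 or 2 (adjusted p up to 0.0624), Myl4 without control replicates 1 or 3 or RUNX1(41-214) replicates 1 or 2 (adjusted p up to 0.102), and Krt8 without control replicates 1, 2 or 3, Runx1KO replicates 1 or 2 or RUNX1(41-214) replicates 1 or 2 (adjusted p up to 0.191).

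Interferon genes were compared between groups of which the labels name poly IC, an inducer of interferon, for the controls alone. Of 38 interferon-stimulated genes 2 rose and 0 fell (5.26%, against 3.62% of all genes). Ifi209, of the family of interferon-inducible DNA sensors, was at 7.11, 6.33 and 8.12 in control, 8.79, 10.01 and 9.68 in Runx1KO and 11.06, 10.38 and 9.99 in RUNX1(41-214) cells, a rise of 3.29 ± 0.45 (adjusted p = 0.00212). The other Ifi209 probe set was at 1.63 and did not pass (limma adjusted p = 0.112). Ifi27l2a rose by 1.23 ± 0.29, from 5.91, 5.65 and 5.55 to 7.5, 6.44 and 6.88. Of 6 guanylate-binding protein genes 3 fell (50%): Gbp2b, Gbp6 from 9.05, 9.43 and 9.59 to 8.03, 6.05 and 7.63 (-2.12 ± 0.43) and Gbp8 from 7.54, 7.54 and 8.24 to 6.46, 5.32 and 6.33 (-1.73 ± 0.32). Of 5 Gimap genes, GTPases of lymphocytes, Gimap4 rose (20%), and 1 of 31 NF-kB pathway genes, Ltb, fell (3.23%). Of 18 MHC class II and antigen presentation genes 0 passed (limma; 5 had an unadjusted p under 0.05), with the invariant chain gene Cd74 at -0.93 ± 0.23 (adjusted p = 0.0572). Calls that did not hold without some array were Ifi27l2a without control replicates 1, 2 or 3, Runx1KO replicates 2 or 3 or RUNX1(41-214) replicates 1 or 3 (adjusted p up to 0.158), Gbp6 without control replicates 1, 2 or 3 (adjusted p up to 0.091), and Gbp8 without control replicate 3 (adjusted p up to 0.0553).

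Of 32 imprinted genes 4 fell and 0 rose (12.5%, against 3.62% of all genes). Beside Ndn and Igf2r these were Grb10 (not past the threshold with the mean of its probe sets), an adaptor that restrains insulin signalling, at 10.11, 10.19 and 10.54 in control, 10.03, 10.14 and 10.46 in Runx1KO and 9.25, 8.75 and 8.85 in RUNX1(41-214) cells (a change of -1.33 ± 0.2, adjusted p = 0.00382), and the zinc finger gene Plagl1 (-1.16 ± 0.27, at low signal). Of 16 genes of the X-linked Bex, Tceal and Pnma families 3 fell and 0 rose (18.8%), in each omission of a single array, with a median of -0.56 and 13 of 16 below control. Over the whole X chromosome 4 of 402 genes rose and 13 fell (4.23%). Bex4 was at 7.95, 8.25 and 8.32 in control, 7.19, 6.63 and 7.83 in Runx1KO and 5.36, 5.23 and 4.87 in RUNX1(41-214) cells, a change of -3.02 ± 0.3 (adjusted p = 0.000199), and Zcchc18 was at 8.67, 8.77 and 8.0, 7.68, 7.26 and 6.76 and 5.76, 5.37 and 5.7 in the same order of groups, a change of -2.87 ± 0.29 (adjusted p = 0.000244). Of 11 sex-linked genes 0 passed (limma; 1 had an unadjusted p under 0.05). The falls on the imprinted list numbered 2 without any one of the RUNX1(41-214) arrays, and calls ended for Igf2r without RUNX1(41-214) replicates 1, 2 or 3 (adjusted p up to 0.0962) and Plagl1 without control replicates 1 or 3, Runx1KO replicate 1 or RUNX1(41-214) replicates 1, 2 or 3 (adjusted p up to 0.157).

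Of 44 glycosyltransferase genes 5 fell and 0 rose (11.4%, against 3.62% of all genes). St6gal1, which adds alpha-2,6-linked sialic acid, was at 10.33, 8.34 and 9.46 in control and 6.38, 6.19 and 5.48 in RUNX1(41-214) cells, a change of -3.36 ± 0.52 (adjusted p = 0.00429). Its other probe set, a dim one, was at 0.11 (adjusted p = 0.898). B3gnt5, which starts the lacto-series of glycolipids, was at 10.67, 9.9 and 10.71 in control, 9.56, 8.79 and 9.66 in Runx1KO and 8.15, 8.61 and 8.06 in RUNX1(41-214) cells (a change of -2.16 ± 0.29, adjusted p = 0.00196). The galactosyltransferase gene B4galt4 fell by 1.71 ± 0.29, and the sialyltransferase genes St3gal6 (-1.26 ± 0.27) and St3gal2 (-0.96 ± 0.22) fell too. Neither of the last pair passed with the mean of its probe sets (adjusted p = 0.157 and 0.0548), nor St3gal2 with centred arrays (0.0509). Galc and Gdpd3 were the 2 of 44 sphingolipid, phospholipid and eicosanoid enzyme genes that passed. Of 35 cholesterol and fatty acid genes the apolipoprotein gene Apoe rose by 1.15 ± 0.24 and the desaturase gene Fads2 fell by 1.04 ± 0.21 (5.71%). At an unadjusted limma p under 0.05, 3 of the 35 were higher and 11 lower. Glycosyltransferase falls numbered 2 without RUNX1(41-214) replicate 2 and 3 without its replicate 3 or control replicate 1, and calls ended for B4galt4 without RUNX1(41-214) replicate 2 (adjusted p up to 0.0544), St3gal6 without control replicates 1 or 2 or RUNX1(41-214) replicates 2 or 3 (adjusted p up to 0.14), and St3gal2 without control replicates 1 or 2, Runx1KO replicate 1 or RUNX1(41-214) replicates 1, 2 or 3 (adjusted p up to 0.185). Further losses were those of Apoe without control replicate 1 or RUNX1(41-214) replicates 1 or 3 (adjusted p up to 0.103) and Fads2 without control replicates 1 or 2 or RUNX1(41-214) replicates 1 or 2 (adjusted p up to 0.107).

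Asns, which makes asparagine and rises under amino acid shortage, was at 9.72, 10.57 and 9.85 in control and 7.76, 7.85 and 8.14 in RUNX1(41-214) cells and fell by 2.13 ± 0.31 (adjusted p = 0.00318), the 1 of 39 chaperone and unfolded protein response genes that passed (2.56%, against 3.62% of all genes). Ldhb, the heart form of lactate dehydrogenase, fell by 1.79 ± 0.34, from 10.96, 11.27 and 9.95 to 9.34, 8.91 and 8.57, the enolase gene Eno2 fell by 0.77 ± 0.18 and the transcription coregulator gene Cited2 rose by 0.82 ± 0.17, the 3 of 32 glycolysis and hypoxia genes that passed (9.38%). Other probe sets of Ldhb fell by 1.76, 1.94 and 1.88 and passed. With arrays centred on their medians Eno2 did not pass (adjusted p = 0.0735). Atp5l, an ATP synthase subunit gene, rose by 1.05 ± 0.24, the 1 of 71 oxidative phosphorylation genes that passed (1.41%). Without quantile normalization neither Atp5l nor Abcc3 passed (adjusted p = 0.0609 and 0.0746). Of 20 ABC transporter genes Abcc3 rose by 0.89 ± 0.21 and Abcb1a, which pumps drugs and dyes out of stem cells, fell by 1.03 ± 0.24 (10%). Apart from Asns, each of these calls ended without some array: Ldhb without control replicate 1 or RUNX1(41-214) replicates 2 or 3 (adjusted p up to 0.0709), Eno2 without control replicates 1, 2 or 3, Runx1KO replicate 1 or RUNX1(41-214) replicates 1, 2 or 3 (adjusted p up to 0.177), and Cited2 without control replicates 2 or 3 or RUNX1(41-214) replicates 1 or 2 (adjusted p up to 0.12). Lost as well were Atp5l without control replicates 1 or 3 or RUNX1(41-214) replicates 1, 2 or 3 (adjusted p up to 0.15), Abcc3 without control replicates 1 or 3, Runx1KO replicates 1 or 3 or RUNX1(41-214) replicates 1, 2 or 3 (adjusted p up to 0.184), and Abcb1a without control replicates 1 or 3, Runx1KO replicate 2 or RUNX1(41-214) replicates 1, 2 or 3 (adjusted p up to 0.204).

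Of 32 genes of G1 cyclins, CDK inhibitors and pocket proteins 1 rose (3.12%, against 3.62% of all genes): Cdkn1b, the inhibitor p27, at 8.98, 9.2 and 9.12 in control and 9.95, 9.98 and 10.05 in RUNX1(41-214) cells (0.9 ± 0.16, adjusted p = 0.00882). Its other probe set was at -1.49 with overlapping groups (adjusted p = 0.336), and with the mean of both Cdkn1b was at -0.30 (adjusted p = 0.781). In limma 0 of 41 DNA replication and S phase genes passed (5 had an unadjusted p under 0.05), 0 of 47 mitosis genes (0), 0 of 29 genes of p53 and its targets (5), 0 of 43 cytosolic ribosomal protein genes (7, all higher), 0 of 50 ribosome biogenesis genes (2) and 0 of 40 proteasome genes (2). Leaving out 1 array gave at most 1 call in each of these lists. In these lists Pole was at 0.59 ± 0.19, Cenpe at -1.36 ± 0.64 with RUNX1(41-214) arrays from 5.62 to 8.65, and Rps10 at 0.4 ± 0.12. Of 32 Bcl2 family and apoptosis genes 3 rose and 1 fell (12.5%): the apoptosome scaffold gene Apaf1 (0.95 ± 0.18), the inflammatory caspase gene Casp4 (0.98 ± 0.22) and the death-associated kinase gene Dapk1 (0.81 ± 0.17) rose and the effector gene Bok fell by 1.14 ± 0.27. Apaf1 did not pass with the mean of its probe sets (adjusted p = 0.235). None of the 4 passed without RUNX1(41-214) replicate 1 or 2. Of 39 MAPK feedback and immediate early genes 2 rose and 2 fell (10.3%), the growth arrest genes Gadd45g (1.34 ± 0.24 higher) and Gadd45b (-1.38 ± 0.28) in opposite directions beside Ier2 (0.88 ± 0.19 higher) and Egr1. For Gadd45b another probe set rose by 0.96 (adjusted p = 0.0155), and with the mean of its probe sets the gene was at -0.39 (adjusted p = 0.236). Omissions that ended these calls were Cdkn1b without RUNX1(41-214) replicate 2 (adjusted p up to 0.0559), Apaf1 without RUNX1(41-214) replicates 1 or 2 (adjusted p up to 0.0929), and Casp4 without control replicates 1, 2 or 3 or RUNX1(41-214) replicates 1, 2 or 3 (adjusted p up to 0.14). Calls were also lost for Dapk1 without control replicates 1, 2 or 3 or RUNX1(41-214) replicates 1, 2 or 3 (adjusted p up to 0.121), Bok without control replicates 1, 2 or 3, Runx1KO replicates 1, 2 or 3 or RUNX1(41-214) replicates 1, 2 or 3 (adjusted p up to 0.198), and Gadd45g without RUNX1(41-214) replicate 1 (adjusted p up to 0.0632). The same held for Gadd45b without control replicates 1 or 3 or RUNX1(41-214) replicates 1 or 2 (adjusted p up to 0.105) and Ier2 without control replicates 1 or 3 or RUNX1(41-214) replicates 1, 2 or 3 (adjusted p up to 0.102).

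**Figure D5:**
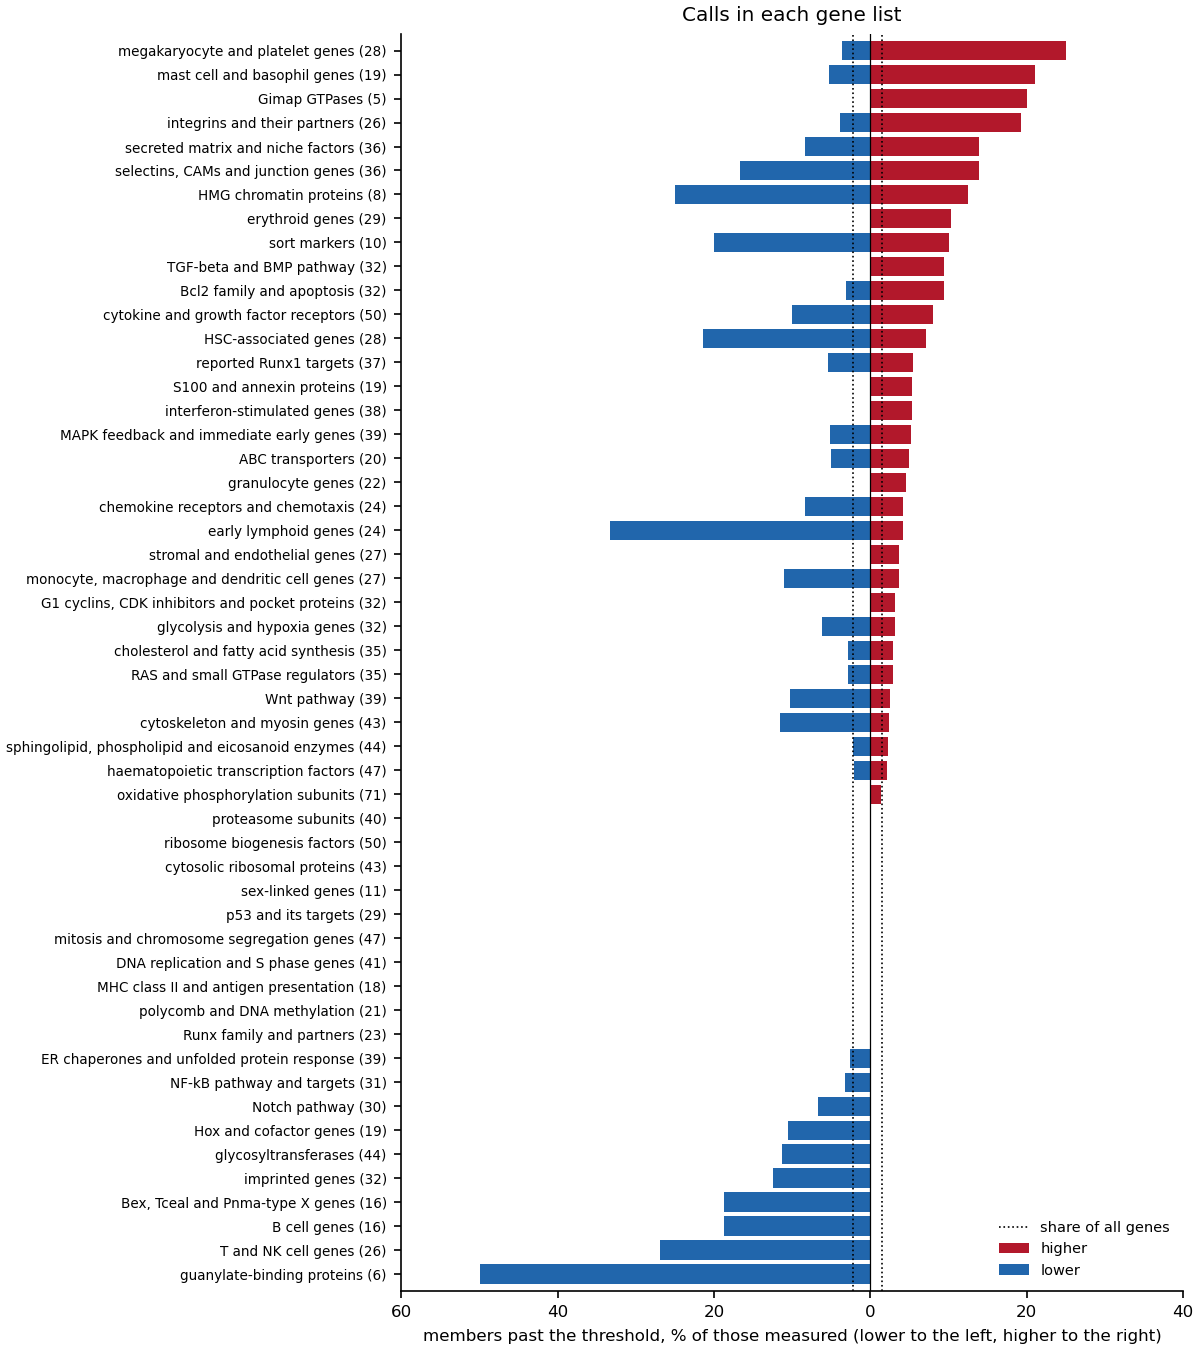
Share of the measured members of each of the 52 gene lists that passed an adjusted p of 0.05 (horizontal axis, percent; lower to the left in blue, higher to the right in red), with the number measured in brackets. Dotted lines mark the shares of all genes, 2.19% lower and 1.44% higher; the guanylate-binding protein and early lymphoid lists reach farthest to the left and the megakaryocyte and platelet list farthest to the right.

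The 52 lists held 1424 measured genes, of which 56 rose and 75 fell, and 318 of the 449 genes that passed were on none of them. Probe sets of the same gene were compared where there were several: 192 of the genes that passed had others, 308 in all. Of these 93 passed in the same direction, 1 passed in the opposite direction (Gadd45b), 157 had the same sign and 57 the opposite sign without passing. Among the 69 other probe sets above the median signal, 33 passed in the same direction and 4 had the opposite sign without passing. By position in the RefSeq gene table, 50 of the genes that passed lay in 25 pairs of neighbouring measured genes that moved the same way, and no run was longer. The pairs, named after their values were seen, included Blnk and Dntt, Gbp8 and Gbp6, the ion channel genes Mcoln3 and Mcoln2 and the desaturase genes Fads3 and Fads2 among the falls, and the lectin genes Clec4d and Clec4e, Col4a1 and Col4a2, and Adamtsl4 and Ecm1 among the rises.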

How the data were processed

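Per the labels' protocols, Qiagen microcolumns yielded the RNA, and an Affymetrix two-cycle procedure, which amplifies the material, gave the biotin label. The deposited values are a linear intensity per probe set (0.53 to 20215). How the authors summarised and scaled the intensities is not given in the sources used here. Of 22690 probe sets, 64 controls, 691 with several gene symbols and 1555 with none were left out, which left 20380. Symbols came from the platform annotation, and 20351 of these probe sets matched the RefSeq gene table (GRCm38.p6). Intensities were taken as log2(value + 16) and quantile normalized, and all 9 arrays were fitted with a mean per group in limma 3.58.1 (R 4.3.3, lmFit and eBayes with trend, Benjamini-Hochberg over 20380 probe sets). Of several probe sets the brightest on average stands for the gene. A gene was called at an adjusted p of 0.05. Tested on simulated data of 20380 probe sets, the fit recovered 11.9% of 1.5-fold, 40.3% of 2-fold and 95.5% of 4-fold changes, and 8 of its 106 calls were false. The simulation drew independent normal noise for each probe set and changed 67, 67 and 66 probe sets by these folds. Its rates therefore need not hold for the measured arrays. Named genes were the Runx genes and Cbfb, the 20 largest rises and falls with non-overlapping arrays whose brighter group exceeded the median gene, up to 6 called members of each list by p (the 2 lowest p where none passed), all sort markers and the 3 brightest members of other cell type lists; others are said to be chosen after their values were seen. The members and the lists were chosen with earlier results of these data known. Alternatives covered the offset, normalization, filters, probe set rule, arrays, weights, variance trend, minimum fold and replicate block. P-values measure the spread between the biological replicates, whose separate origin is given only by that name.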

Additional observations from a re-analysis of the deposited data

Results flagged for a closer look

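Probe sets without exactly 1 gene symbol were left out of the comparison. In a fit over all probe sets that are not controls, 54 of them passed an adjusted p of 0.05 between RUNX1(41-214) and control cells (limma), 25 higher and 29 lower. They are given here because they lie outside the genes reported. They carry several gene symbols or none, so no gene is named for them.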

How the results depend on the processing

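Over the alternatives, the number of genes past the threshold was most sensitive to the arrays used. With single arrays left out it ran from 227 to 479 genes (76 to 189 higher, 148 to 290 lower) and from 315 to 688 probe sets. Array weights gave 992 probe sets and 670 genes (277 higher, 393 lower), of which 448 were among the 449, and a minimum fold of 1.2 gave 371 probe sets and 261 genes (92 higher, 169 lower). Offsets of 1 or 50, no quantile normalization, median centring, a filter on dim probe sets, 1 probe set per gene, a mean over each gene's probe sets, all probe sets, 6 arrays only and no variance trend gave between 345 and 531 genes. Centring arrays on their medians moved the median of all genes to 0.117 and the share of higher genes from 39.6% to 49.3%, and without quantile normalization that share was 35%. Same-numbered control and RUNX1(41-214) arrays deviated from their group means with correlations of 0.20, -0.15 and -0.03. Between control and Runx1KO arrays, which also entered the fit, these were 0.03, 0.41 and 0.42. Between Runx1KO and RUNX1(41-214) arrays they were -0.002, -0.05 and -0.17. Whether same-numbered arrays were paired was not settled by these values. A fit with the replicate block gave 660 probe sets and 456 genes (181 higher, 275 lower), 405 of them among the 449. Of 131 named genes past the threshold, 65 passed in every alternative. 1 of these 131 turned its sign: Cdkn1b was at -0.30 with the mean of its probe sets (adjusted p = 0.781). The other sign changes were in genes that did not pass. With centred arrays Car2 was at 0.117, Lat at 0.025 and Lyz1 at 0.139, and Lyz1 was at 0.008 without quantile normalization. With array weights Car2 was at 0.021 and Gata3 at 0.093. With single arrays left out, Cd79b ran from -0.047 to 0.198, Fech from -0.116 to 0.201, Car2 from -0.224 to 0.086, Lat from -0.173 to 0.019, Gata3 from -0.167 to 0.109, Cd24a from -0.030 to 0.092, Cbfb from -0.090 to 0.118, Lyz2 from -0.027 to 0.204, Egfl7 from -0.166 to 0.275, Lyz1 from -0.180 to 0.089 and Runx3 from -0.019 to 0.261. The cause of these moves was not tested. Of 1144 recomputed list medians 103 moved by more than the spread between replicates. The number of arrays, 3 per group, limits the precision, and at the dim end of the scale a change is a poor measure of its size.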

Other observations

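A further 13 gene families were looked up after the values were seen, so they describe these arrays only. The large ones lay near the 3.62% of all genes that passed: of 262 solute carrier genes 8 rose and 4 fell (4.58%), and of 173 C2H2 zinc finger genes of the Zfp series 1 rose and 5 fell (3.47%). Of 40 DnaJ and Hsp60 chaperone genes 3 fell (7.50%), of 18 receptor phosphatase genes 2 rose and 1 fell (16.7%), and 1 of 5 Siglec genes rose. Of 17 aldehyde dehydrogenase genes 4 fell and 0 rose (23.5%). Aldh7a1, which oxidises aldehydes from lysine breakdown, was at 10.18, 10.28 and 9.98 in control, 9.57, 9.61 and 9.47 in Runx1KO and 9.08, 9.04 and 9.03 in RUNX1(41-214) cells (a change of -1.09 ± 0.16, SE, limma adjusted p = 0.00303), though with the mean of its probe sets it did not pass (0.156). The others were Aldh1a1, given above, Aldh1a7 (-1.98 ± 0.38) and Aldh1b1 (-1.07 ± 0.24). Of 20 C-type lectin genes 3 rose and 0 fell (15%). Besides Clec1b these were the myeloid pattern receptors Clec4e, at 9.69, 9.29 and 9.33 in control, 10.05, 10.06 and 10.32 in Runx1KO and 11.21, 11.15 and 10.81 in RUNX1(41-214) cells (a rise of 1.62 ± 0.17, adjusted p = 0.00041), and Clec4d (1.88 ± 0.31 higher). Naip2, an inflammasome receptor for bacterial proteins, was at 7.26, 7.88 and 7.7 against 9.68, 9.38 and 9.41 and rose by 1.88 ± 0.24 (adjusted p = 0.00124), and Naip6 rose by 1.57 ± 0.3, 2 of the 3 Naip genes measured. These families have copies with alike sequences, so probe sets may not tell Naip2 from Naip6 or Aldh1a1 from Aldh1a7. Of 9 prostanoid receptor genes the prostacyclin receptor gene Ptgir rose by 2.41 ± 0.44, and the prostaglandin receptor gene Ptger2 (-1.75 ± 0.36) and the thromboxane receptor gene Tbxa2r (-2.13 ± 0.37) fell (33.3%). Single omissions ended the call of Aldh1a1 without control replicate 3 (adjusted p up to 0.0636), Aldh1a7 without control replicate 3 or RUNX1(41-214) replicate 1 (adjusted p up to 0.0791), and Aldh1b1 without control replicates 1 or 3, Runx1KO replicate 1 or RUNX1(41-214) replicates 2 or 3 (adjusted p up to 0.166). Calls also ended for Naip6 without control replicate 1 or RUNX1(41-214) replicates 1 or 2 (adjusted p up to 0.068), Ptgir without control replicate 1 or RUNX1(41-214) replicates 1 or 2 (adjusted p up to 0.0657), Ptger2 without control replicates 1 or 3 or RUNX1(41-214) replicates 2 or 3 (adjusted p up to 0.108), and Tbxa2r without RUNX1(41-214) replicate 2 (adjusted p up to 0.0502).

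Of 16 cell polarity genes 4 fell and 0 rose (25%). Mpdz, a scaffold with many PDZ domains, was at 6.91, 6.94 and 7.41 in control, 6.9, 7.05 and 7.79 in Runx1KO and 5.73, 5.3 and 4.92 in RUNX1(41-214) cells (a change of -1.77 ± 0.29, adjusted p = 0.00669; 0.0813 with the mean of its probe sets), and Pard6b, Pard6g and Patj were at -2.02 ± 0.38, -1.14 ± 0.22 and -1.17 ± 0.27. Of 11 Eph receptor genes 3 fell and 0 rose (27.3%), all at low signal: Ephb4 from 5.63, 5.63 and 5.34 to 4.27, 4.46 and 4.55 (-1.1 ± 0.15), Epha2 (-1.66 ± 0.33) and Ephb6 (-0.97 ± 0.23). Among 13 G protein alpha subunit genes, Gnai1, an inhibitory subunit, was at 6.57, 6.52 and 6.71 against 4.88, 4.87 and 5.04 and fell by 1.67 ± 0.21 (adjusted p = 0.0011), while Gna14 rose (15.4%). The lysosomal channel genes Mcoln3 and Mcoln2 fell (-2.7 ± 0.37 and -1.21 ± 0.23), 2 of 3 measured. Calls lost without 1 array here were those of Pard6b without control replicates 1 or 3 (adjusted p up to 0.0694), Pard6g without control replicates 1 or 3 or RUNX1(41-214) replicates 1 or 2 (adjusted p up to 0.076), and Patj without control replicates 1 or 3, Runx1KO replicates 1 or 2 or RUNX1(41-214) replicates 1, 2 or 3 (adjusted p up to 0.152). Further losses were those of Epha2 without control replicates 1 or 3 or RUNX1(41-214) replicates 1, 2 or 3 (adjusted p up to 0.0773), Ephb6 without control replicates 1, 2 or 3, Runx1KO replicates 1 or 3 or RUNX1(41-214) replicates 1, 2 or 3 (adjusted p up to 0.19), and Mcoln2 without control replicate 1 or RUNX1(41-214) replicate 2 (adjusted p up to 0.0692).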
